A study of Simmondsia chinensis with 44 samples.

Results

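The seed coat and the cotyledons of mid-stage jojoba seeds were compared across all genes, in the 5 libraries titled as seed coat and the 5 titled as cotyledon, 10 of 44 libraries in all. Jojoba (Simmondsia chinensis) grows in arid land, and its seed reserve is a liquid wax made of esters rather than an oil of triacylglycerols. The seed coat grows from the integuments of the ovule and is maternal tissue that encloses the embryo and passes nutrients towards it. The cotyledons belong to the embryo and are its main storage organ, where the wax is laid down. Both groups were dissected from mid-stage developing seeds of germplasm PARL# 940, the source of every library. The same dissection series held 5 embryonic axis and 5 whole-seed libraries, and a time course held 6 libraries each of early, mid, late and dry seed. Read counts were given for 23491 genes by RNA sequencing of polyadenylated RNA. Each tissue holds several cell types, and in such bulk samples fewer cells of a type cannot be told apart from less RNA per cell. No label ties libraries of 1 group to separate plants or seeds, so the spread behind every p-value is that among libraries and may be technical.

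Gene identifiers came without names or functions, so the tissue labels were not checked against marker genes, and at most 2 genes in each direction are given by identifier. Total counts ranged from 11771219 to 27511168 in seed coat and from 9882334 to 22827875 in cotyledon. Levels are CPM, a gene's count scaled to a common library total with edgeR's TMM factors. They are not corrected for gene length, so they compare libraries for 1 gene and not 1 gene with another. TMM factors were set separately for the dissection series and the time course, so levels are compared within a series. Of the 23491 genes, 18499 passed a filter on low counts and were tested, and 4992 were not, of which 1974 had no count in any of the 10 libraries.

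Libraries stood apart within both tissues. Among the cotyledon libraries, 1 and 5 placed 62.3% and 63.1% of their counts on the same genes as the seed coat libraries on average, and libraries 2, 3 and 4 placed 52.8%, 50.8% and 50.4%. Toward whole seed the same 2 libraries shared 79.7% and 77.4%, and the other 3 shared 68.1% to 70.3%. Seed coat library 3 had no count for 1434 of the tested genes, where the other seed coat libraries had none for 340 to 455, and the shallowest of these was less deep than library 3. Numbers of genes called between the tissues, and of list members called in other contrasts, are also given without cotyledon libraries 1 and 5 or seed coat library 3. Shares of counts, stages of highest mean, members absent from dry seed and levels in axis are given with all libraries only.

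Seed coat and cotyledon differed in 10716 of the genes tested (57.9%), at an adjusted p under 0.05 in the quasi-likelihood test of edgeR. Of these, 5228 genes were higher in seed coat (28.3% of those tested) and 5488 were lower (29.7%). The libraries of both tissues did not overlap for 3311 of the higher and 3345 of the lower genes. The numbers of higher and lower genes were close, but TMM scaling assumes most genes unchanged, and the median log2 difference was -0.002. Near balance was thus partly set by the scaling, and DESeq2 size factors gave 5022 higher and 5688 lower. The sizes of the differences were less balanced. At least 2-fold, 2459 genes were higher in seed coat and 3000 lower, 13.3% and 16.2% of those tested. A difference of 16-fold or more was found for 158 genes higher (0.854%) and 629 genes lower in seed coat (3.40%). The corresponding numbers were 50 (0.270%) and 298 (1.61%) at 64-fold and 18 (0.0973%) and 134 (0.724%) at 256-fold. These classes include genes with no count in 1 tissue, whose fold rests on a small count that edgeR adds. Of the 1600 genes at least 4-fold lower in seed coat, 383 had a seed coat mean under 0.1 CPM. Of the 831 at least 4-fold higher, 74 had a cotyledon mean under 0.1 CPM. By mean level over both tissues, 128 genes were at least 4-fold higher and 358 lower under 1 CPM, and 316 and 652 from 1 to 10. From 10 to 100 CPM the numbers were 287 and 434, and above that 100 and 156. The 4-fold imbalance was thus present at every level, and how far it rests on genes nearly absent from 1 tissue was not tested. Of the 7783 genes that did not pass, 4961 had a 95% interval of the difference that lay within 2-fold in both directions, and 2822 had an interval that reached past it.

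Part of that imbalance moved with cotyledon libraries 1 and 5. Without both, 1356 genes were at least 4-fold higher in seed coat and 1884 at least 4-fold lower, against 831 and 1600 with them. At least 16-fold the numbers were then 293 and 756. Without seed coat library 3 the 4-fold numbers were 795 and 1601. More genes were therefore strongly lower than strongly higher in seed coat with and without these libraries.

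A pair of lists is followed from here on. Coat-high genes are the 831 genes at least 4-fold higher in seed coat than in cotyledon at an adjusted p under 0.05 (4.49% of those tested), and cotyledon-high genes are the 1600 at least 4-fold lower (8.65%). Since this contrast chose them, their levels in the 2 tissues are a description and carry no test. Of these genes, 730 coat-high and 1272 cotyledon-high had libraries that did not overlap between the tissues. Over all 18499 genes tested, every seed coat library lay above every cotyledon library for 3332 genes and below for 3359.

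**Figure D1:**
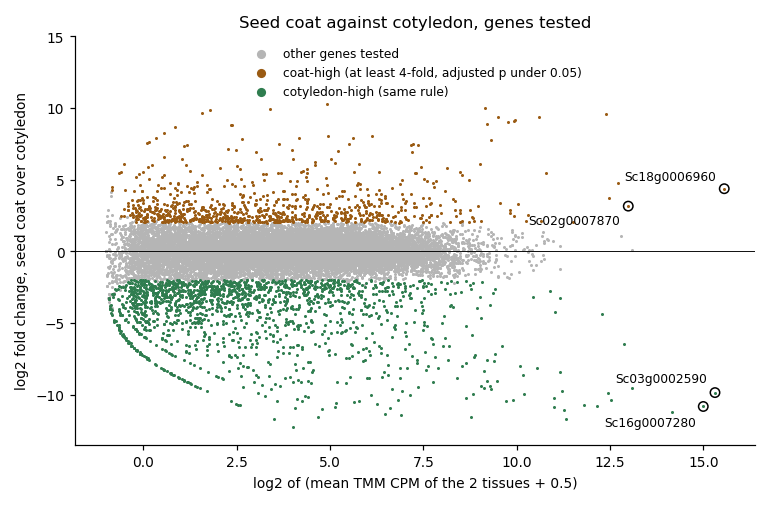
Log2 fold change of seed coat over cotyledon against the log2 mean level for the 18499 genes tested, with 831 coat-high genes in brown, 1600 cotyledon-high genes in green and the 4 named genes circled. The green points reach further from 0 than the brown ones, with 629 genes at least 16-fold lower and 158 at least 16-fold higher, and the curved streaks at the lower left are genes with few or no counts in seed coat.

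The 4 named genes were chosen for a large difference, an adjusted p under 0.05 and tissues that do not overlap. Those traits were set by the choice, so their p-values between the tissues are a description. Sc18g0006960 had the largest difference in CPM of seed coat over cotyledon and took 9.59% ± 0.44 of seed coat counts (SD, n = 5). In the 5 seed coat libraries, in order of their number, it stood at 88235, 96925, 89924, 95334 and 89340 CPM. In cotyledon libraries 1 to 5 it stood at 5938, 3538, 2480, 1525 and 8875 CPM. The seed coat libraries lay close together and far above all cotyledon libraries, while the cotyledon libraries themselves spread widely, with 5 and 1 the highest. The difference was 4.36 ± 0.60 on the log2 scale (SE, edgeR adjusted p = 3.29e-06), and 5.19 without cotyledon libraries 1 and 5.

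Sc02g0007870 was the other gene named as higher in seed coat. Its seed coat libraries stood at 14974, 14936, 15709, 15871 and 11435 CPM and its cotyledon libraries at 2459, 1453, 1087, 520.3 and 2715 CPM. The tissues did not overlap, and the cotyledon libraries ranked in the same order as for Sc18g0006960. The log2 difference was 3.15 ± 0.59 (SE, edgeR adjusted p = 1.32e-04), and 3.84 without cotyledon libraries 1 and 5. Relative to its own seed coat mean, this gene stood at 3.57% to 18.6% in the cotyledon libraries, and Sc18g0006960 at 1.66% to 9.65%.

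Sc03g0002590 had the largest difference in CPM in the other direction and took 6.99% ± 1.00 of cotyledon counts (SD, n = 5). Its cotyledon libraries stood at 54136, 96905, 94202, 91332 and 69053 CPM. Its seed coat libraries stood at 58.0, 207.3, 26.1, 28.8 and 115.7 CPM. The cotyledon libraries lay far above every seed coat library, with 1 and 5 the lowest of them. The log2 difference was -9.86 ± 0.67 (SE, edgeR adjusted p = 1.22e-10), and -10.48 without seed coat library 2, the one with the highest level.

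Sc16g0007280 was the other gene named as lower in seed coat. Its cotyledon libraries stood at 45287, 71072, 77548, 76953 and 55594 CPM and its seed coat libraries at 36.7, 53.6, 17.4, 12.7 and 58.9 CPM. As for Sc03g0002590, the tissues did not overlap and cotyledon libraries 1 and 5 were the lowest of their group. The log2 difference was -10.83 ± 0.59 (SE, edgeR adjusted p = 3.45e-12). In the seed coat libraries this gene stood at 0.0195% to 0.0902% of its cotyledon mean, and Sc03g0002590 at 0.0322% to 0.256%.

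**Figure D2:**
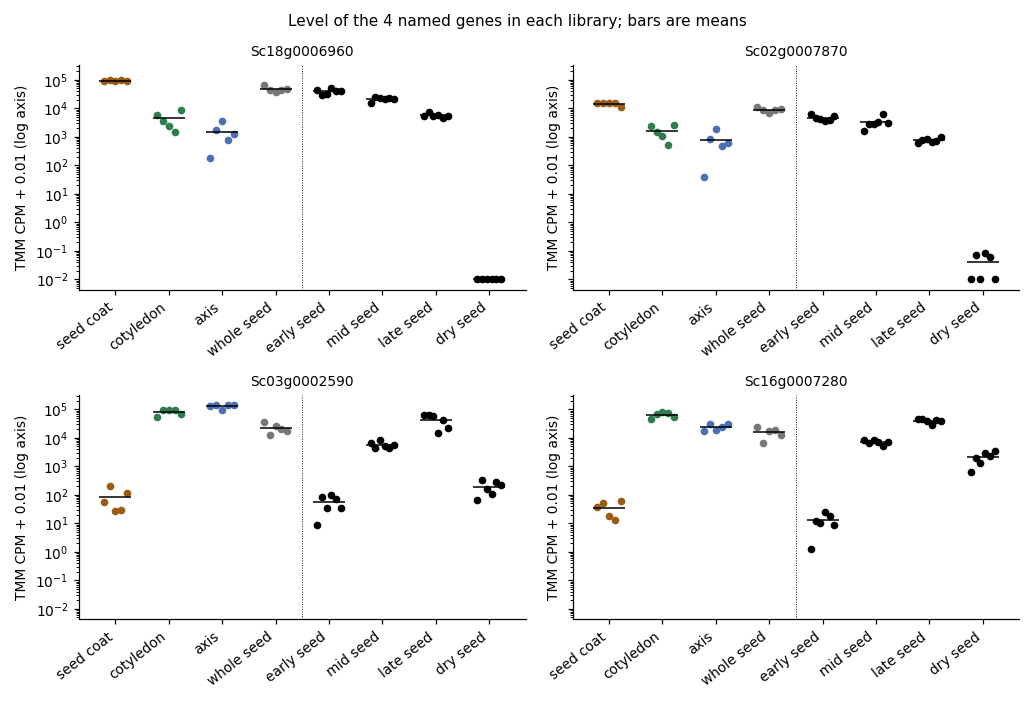
CPM of the 4 named genes in each of the 44 libraries on a log axis, with 0.01 added, the dissection series to the left of the dotted line and the time course to its right; points are libraries and bars are means. Among the stages, the genes higher in seed coat have their highest means in early seed and 0 or 3 counts in all dry libraries, and the genes higher in cotyledon are lowest in seed coat and early seed.

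Coat-high genes took 23.8% ± 0.88 of the counts in seed coat and 1.64% ± 0.95 in cotyledon (SD, n = 5). Without their most counted member, Sc18g0006960, the shares were 14.2% ± 0.87 and 1.23% ± 0.63. Cotyledon-high genes took 35.5% ± 5.6 of the counts in cotyledon and 1.01% ± 0.07 in seed coat, and without Sc03g0002590 28.5% ± 4.9 and 0.998% ± 0.067. Cotyledon libraries 1 and 5 had the smallest shares of cotyledon-high genes, 29.1% and 29.7%, and the largest of coat-high genes, 2.37% and 2.90%.

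The median coat-high gene had 14.3 CPM in seed coat and 1.67 CPM in cotyledon, and 162 of the 831 had at least 100 CPM in seed coat. The median cotyledon-high gene had 8.26 CPM in cotyledon and 0.536 CPM in seed coat, and 235 of the 1600 had at least 100 CPM in cotyledon. Calls depended on the level: 34.9% of tested genes passed at a mean under 1 CPM over both tissues, 50.7% from 1 to 10, 62.6% from 10 to 100 and 76.2% above that. Of genes under 1 CPM, 7.53% were coat-high and 21.1% cotyledon-high, and of those of at least 100 CPM, 5.61% and 8.75%.

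Few genes were counted in 1 tissue and absent from the counts of the other. With at least 10 counts in every seed coat library, 5 genes had no count in any cotyledon library, with seed coat means of 1.54 to 5.94 CPM. The converse held for 24 genes, with cotyledon means of 2.26 to 31.5 CPM. A floor of 3 counts per library stands at 0.202 CPM on average in cotyledon and 0.170 CPM in seed coat. All 24 had a count in some embryonic axis library, and so had 4 of the 5. In whole seed all 24 and all 5 had a count. Most tested genes meet this mark, since single axis libraries had no count for only 37 to 325 of the 18499.

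Low levels of the other tissue's genes differed from library to library. The median coat-high gene stood at 19.0%, 11.7%, 10.4%, 6.60% and 14.7% of its seed coat mean in cotyledon libraries 1 to 5. The median cotyledon-high gene stood at 6.19%, 7.72%, 0.712%, 8.40% and 7.98% of its cotyledon mean in seed coat libraries 1 to 5, so that library 3 lay far below the others. In that library 667 of the 1600 cotyledon-high genes had no count, against 241 to 315 in the other seed coat libraries. Cotyledon library 5 had no count for 142 of the 831 coat-high genes and the largest share of counts on that list.

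Seed coat library 3 had no count for 804 tested genes that were counted in all 4 other seed coat libraries. The same number for each of the other seed coat libraries was 13 to 37. Their median level was 0.577 CPM in the other seed coat libraries, 0.956 CPM in cotyledon and 1.32 CPM in embryonic axis. Among seed coat, cotyledon and axis, the highest mean was in axis for 437 of them, in cotyledon for 236 and in seed coat for 131. Cotyledon library 5 likewise had no count for 385 genes counted in the other 4 cotyledon libraries, against 5 to 69 for each of the others. Without both libraries 5786 genes were higher in seed coat and 6080 lower, of which 964 and 1712 differed at least 4-fold.

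**Figure D3:**
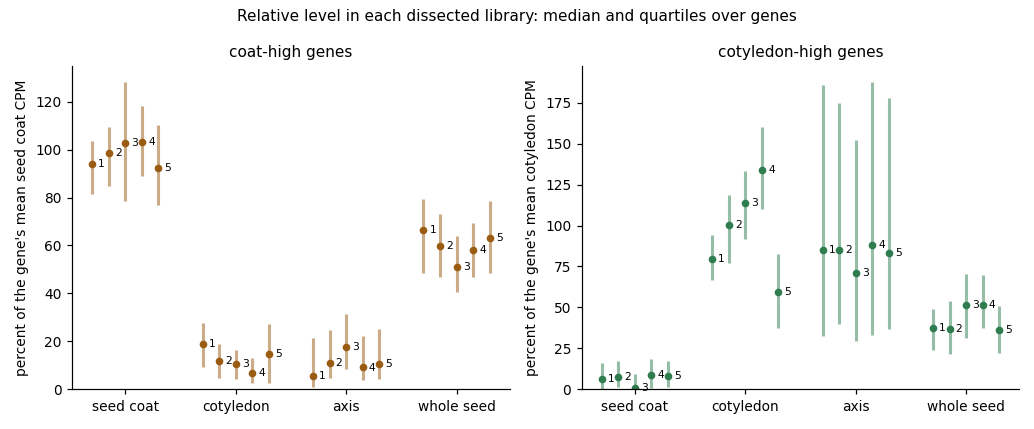
Level of coat-high genes relative to each gene's seed coat mean (left) and of cotyledon-high genes relative to each gene's cotyledon mean (right) in the 20 libraries of the dissection series, in percent; points are medians over genes, lines span the quartiles and digits are library numbers. Seed coat library 3 has the lowest median of cotyledon-high genes, 0.712%, and cotyledon libraries 1 and 5 the highest medians of coat-high genes in their tissue, 19.0% and 14.7%.

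Cotyledon libraries also varied more among themselves than seed coat libraries. The median SD of a gene on the log2(CPM + 0.5) scale was 0.346 in cotyledon and 0.274 in seed coat, and 0.202 in axis and 0.225 in whole seed. Any 2 seed coat libraries placed 89.1% to 95.4% of their counts on the same genes, and any 2 cotyledon libraries 80.6% to 91.9%. Between the tissues this shared part was 49.6% to 63.9%, with a median of 53.0%.

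Counts were concentrated in fewer genes in cotyledon. In cotyledon libraries 1 to 5 the 100 genes with the most counts held 31.8%, 40.0%, 40.4%, 38.3% and 33.3% of them. They held 29.3%, 29.6%, 29.1%, 31.1% and 27.8% in seed coat libraries 1 to 5. All cotyledon libraries lay above all seed coat libraries, with means of 36.8% ± 3.9 and 29.4% ± 1.2 (SD, n = 5). The two-sided exact permutation p was 0.00794, the lowest value possible for 5 against 5 libraries, and 0.0159 after adjustment over 2 tests. Of the 100 genes with the largest mean share in each tissue, 37 were the same. Coat-high genes made up 34 of the 100 in seed coat, and cotyledon-high genes 50 of the 100 in cotyledon. Choosing the 100 by counts in the libraries that set the lists favours each tissue's own list. Of all tested genes with a mean of at least 100 CPM, 5.61% were coat-high and 8.75% cotyledon-high. Among the 100 of seed coat, 21 did not pass the test between the tissues, and among those of cotyledon 17 did not. Of all tested genes at that level 76.2% passed.

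The number of genes detected at 1 CPM, without TMM scaling, was 16066 ± 369 in seed coat and 16261 ± 208 in cotyledon (SD, n = 5), with an adjusted two-sided exact permutation p of 0.389. The ranges overlapped, from 15435 to 16410 in seed coat and from 16086 to 16601 in cotyledon. Library 3 was the lowest of seed coat, and without it the difference of seed coat minus cotyledon went from -195.2 to -37.45 genes.

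In the embryonic axis, the other part of the embryo, cotyledon-high genes were abundant and coat-high genes were not. The median cotyledon-high gene had an axis mean of 84.9% of its cotyledon mean, with quartiles of 35.9% and 177.2%, and 707 of the 1600 had a higher mean in axis than in cotyledon. The median coat-high gene had an axis mean of 11.1% of its seed coat mean, and 51 of the 831 had a higher mean in axis than in seed coat. Cotyledon-high genes took 33.6% ± 3.3 of axis counts and coat-high genes 1.20% ± 0.54 (SD, n = 5). These levels are given without a test, since they are read against the libraries that set the lists.

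Whole seed lay between both tissues. The median coat-high gene had a whole-seed mean of 61.3% of its seed coat mean, and the median cotyledon-high gene 44.9% of its cotyledon mean. Coat-high genes took 12.9% ± 2.0 of whole-seed counts and cotyledon-high genes 14.6% ± 3.3 (SD, n = 5).

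Whole seed against axis gave a contrast between libraries that did not set the lists, although all 4 groups of the dissection series shared 1 estimate of the spread. By its title whole seed includes the seed coat and cotyledons, which the axis libraries lack. Directions of the lists here thus follow in part from what was dissected, and are no separate support for the lists. By edgeR's test 669 of the 831 coat-high genes (80.5%) were higher in whole seed than in axis and 31 were lower (3.73%), where 27.1% of all genes tested were higher and 25.9% lower. The median log2 difference of coat-high genes was 2.43, and that of all genes tested was -0.01. Of the 1600 cotyledon-high genes, 187 were higher in whole seed (11.7%) and 792 lower (49.5%), with a median of -0.98. With the lists set without cotyledon libraries 1 and 5, 79.6% of coat-high genes were higher and 2.15% lower in whole seed, and 11.8% and 48.7% of cotyledon-high genes. With seed coat library 3 left out of the whole fit, so that the contrast was refitted too, these shares were 80.8%, 4.91%, 12.7% and 50.1%.

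Sc18g0006960 stood at 64793, 42580, 38372, 44167 and 46659 CPM in whole-seed libraries 1 to 5 and at 176.8, 1697, 3497, 776.3 and 1308 CPM in axis libraries 1 to 5. Sc02g0007870 stood at 11464, 8792, 6872, 8594 and 9751 CPM in whole seed and at 40.5, 817.4, 1865, 468.4 and 621.1 CPM in axis. For both genes the groups did not overlap, and axis libraries 1 and 3 were the lowest and the highest of their group. Sc18g0006960 was higher in whole seed by 4.99 ± 0.62 and Sc02g0007870 by 3.58 ± 0.61 on the log2 scale (SE, edgeR adjusted p = 1.12e-06 and 4.81e-05). Sc03g0002590 ranged from 12180 to 34910 CPM in whole seed (median 20698) and from 90995 to 142420 CPM in axis (median 136907), with no overlap, and had a log2 difference of -2.52 ± 0.49 (SE, edgeR adjusted p = 1.96e-04). Sc16g0007280 ranged from 6337 to 23690 CPM in whole seed and from 16983 to 29716 CPM in axis. Its groups overlapped, with a log2 difference of -0.58 ± 0.39 (SE, edgeR adjusted p = 0.22).

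The time course, which shares no library with the dissection series, held 765 of the coat-high and 1432 of the cotyledon-high genes after its own filter. The titles do not say whether these seeds, dry seeds included, kept the seed coat. Mid seed here differed from whole seed of the dissection series, which is also mid-stage. Coat-high genes took 6.76% of counts in mid seed (4.78% to 8.26%), 12.9% in whole seed (10.2% to 15.7%) and 11.8% in early seed. For cotyledon-high genes these shares were 11.6%, 14.6% and 3.05%, and the ranges of mid and whole seed overlapped. The 2 mid stages may therefore not match, and the cause was not tested. Among the 765 coat-high genes, 464 (60.7%) had their highest mean level in early seed, against 25.3% of the 18440 genes tested. Among the 1432 cotyledon-high genes, 133 (9.29%) were highest in early seed, 386 of the 1432 in mid seed, 459 (32.1%) in late seed and 454 (31.7%) in dry seed. Of all genes tested, 16.1% were highest in mid seed, 21.4% in late seed and 37.2% in dry seed, so the share highest in dry seed was below that of all genes.

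From early to mid seed, cotyledon-high genes mostly rose and coat-high genes fell more often than they rose. By edgeR's test 886 of 1432 cotyledon-high genes (61.9%) rose and 108 (7.54%) fell, where 26.0% of all genes tested rose and 23.6% fell. Of 765 coat-high genes, 356 (46.5%) fell, 99 (12.9%) rose and 310 did not pass. The median log2 changes were 1.47 for cotyledon-high genes, -0.62 for coat-high genes and 0.02 for all genes tested. With lists set without cotyledon libraries 1 and 5, 59.2% of cotyledon-high genes rose and 49.4% of coat-high genes fell, and without seed coat library 3, 62.4% and 47.8%.

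From mid to late seed, coat-high genes again fell more often than they rose, and cotyledon-high genes went both ways. Of 765 coat-high genes, 392 (51.2%) fell and 80 (10.5%) rose, where 29.8% of all genes tested fell and 27.3% rose (57.1% passed in either direction). Of 1432 cotyledon-high genes, 555 (38.8%) rose and 358 fell. The share of counts on cotyledon-high genes went from 11.6% ± 0.9 in mid seed to 27.3% ± 0.9 in late seed (SD, n = 6), and that on coat-high genes from 6.76% ± 1.20 to 2.37% ± 0.16. With lists set without cotyledon libraries 1 and 5, 42.9% of coat-high genes fell and 15.3% rose, and 36.8% of cotyledon-high genes rose. Without seed coat library 3 the same shares were 50.7%, 10.8% and 38.3%. Neighbouring stage comparisons share the libraries of the stage between them.

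From late to dry seed, most coat-high genes fell. Of 765, 587 (76.7%) fell and 75 (9.80%) rose, where 43.3% of all genes tested fell and 36.8% rose (80.1% passed in either direction). The median log2 change was -4.05 for coat-high genes and -0.13 for all genes tested. No count in any dry-seed library was found for 115 of the 765 coat-high genes, against 448 of all 18440 genes tested (2.43%). Of 1432 cotyledon-high genes, 705 (49.2%) fell and 399 (27.9%) rose. With lists set without cotyledon libraries 1 and 5, 77.5% of coat-high and 49.2% of cotyledon-high genes fell, and without seed coat library 3, 77.3% and 49.3%. The share of counts on cotyledon-high genes was 23.7% ± 4.7 in dry seed (SD, n = 6), where library 4 had 32.3% and the others 18.0% to 23.6%.

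**Figure D4:**
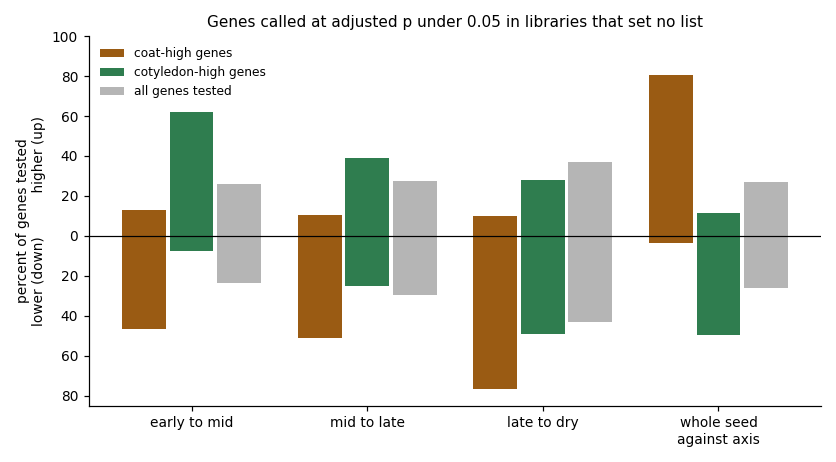
Percent of coat-high genes (brown), cotyledon-high genes (green) and all genes tested (grey) called higher (up) or lower (down) at an adjusted p under 0.05, in 4 contrasts without seed coat or cotyledon libraries. Coat-high genes were lower in 46.5%, 51.2% and 76.7% of cases along the stages and higher in 80.5% in whole seed against axis.

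**Figure D5:**
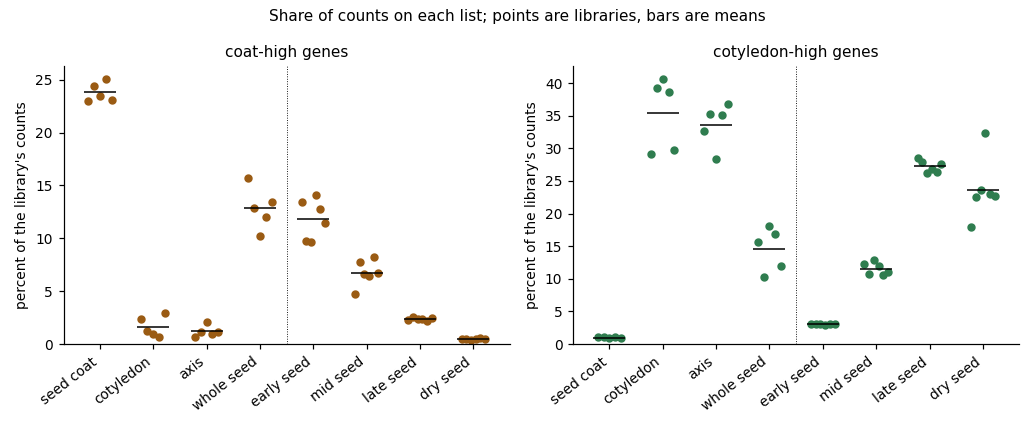
Percent of each library's counts on coat-high (left) and cotyledon-high genes (right) in the 8 groups, with the dotted line between the dissection series and the time course; points are libraries and bars are means. The mean share of coat-high genes went from 11.8% in early seed to 0.470% in dry seed, and that of cotyledon-high genes went from 3.05% in early seed to 27.3% in late seed.

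Both named genes higher in cotyledon rose from early through late seed. Sc03g0002590 stood at 9.06 to 97.4 CPM in early seed (median 52.9), 4343 to 8397 in mid seed (median 5344) and 15126 to 65076 in late seed (median 49255). It rose by 6.70 ± 0.60 and then by 2.93 ± 0.50 on the log2 scale (SE, edgeR adjusted p = 2.57e-09 and 2.56e-05), and the ranges of these stages did not overlap. It fell in dry seed to between 66.4 and 324.2 CPM (edgeR adjusted p = 2.49e-11).

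Sc16g0007280 stood at 1.21 to 25.5 CPM in early seed (median 11.4), 5139 to 8404 in mid seed (median 7179) and 27721 to 46687 in late seed (median 41712). It rose by 9.11 ± 0.60 and 2.51 ± 0.45 on the log2 scale (SE, edgeR adjusted p = 1.85e-11 and 4.32e-05). Dry seed lay between mid and early seed, at 626.3 to 3346 CPM with a median of 2108. The log2 change from late seed was -4.27 ± 0.48 (SE, edgeR adjusted p = 1.42e-08).

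Sc18g0006960 fell at each stage, from 29333 to 51708 CPM in early seed (median 39746), to 15105 to 24385 in mid seed (median 21916) and 4628 to 7221 in late seed (median 5416). Its log2 changes were -0.91 ± 0.25 and -1.90 ± 0.26 (SE, edgeR adjusted p = 0.00534 and 3.68e-06), and it had 0 counts in all 6 dry-seed libraries. Sc02g0007870 stood at 3656 to 6139 CPM in early seed and 1665 to 6545 in mid seed, a log2 change of -0.47 ± 0.24 that did not pass (edgeR adjusted p = 0.111). From there it fell to between 613.0 and 967.0 CPM in late seed, by a log2 change of -2.16 ± 0.25 (edgeR adjusted p = 1.11e-07), and had 3 counts in all dry-seed libraries together.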

How the data were processed

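The deposited counts used are raw whole numbers of reads for each gene, 1 table for the dissection and 1 for the time course. Trimmomatic, STAR and DESeq2 are named in the submitters' processing notes. The counter, build, annotation and use of strand were not given in the sources used here, so near-identical copies and antisense overlaps make single genes uncertain. Per the labels, RNA came from a hot-borate extraction and a stranded mRNA kit. The authors' normalized tables were not used.

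Each table was fitted with edgeR 4.0.16 (R 4.3.3; TMM, filterByExpr, glmQLFit, glmQLFTest; all 4 groups in 1 fit; Benjamini-Hochberg, threshold 0.05), after a test on simulated data. Far fewer genes were changed in those simulated data than were called here. Python 3.11.15 and scipy 1.17.1 gave the exact permutation tests. No 2 libraries of a group were alike to within counting noise (chi-square over degrees of freedom at least 10.9 in the dissection series and 8.84 in the time course). Counting limits the precision of low levels; floors cover counting error only.

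With identifiers unpaired with names, the naming rule took the 2 genes with the largest difference of mean CPM in each direction, among genes at least 4-fold different, with an adjusted p under 0.05 and groups that do not overlap. Planned lists of wax, storage protein and seed coat genes need names and were not used. The members, lists and tests were chosen with earlier results of these data known. Alternatives were DESeq2 1.42.0, other scalings, no filter, a replicate block, fewer groups, lists at 2-fold and left-out libraries. Counts at 16-fold, lists without seed coat library 3, and seed coat library 3 and cotyledon library 5 left out together were added after seeing the data.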

Additional observations from a re-analysis of the deposited data

Results flagged for a closer look

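In 75 groups of libraries tested for 1 library far from the others, 8 were picked out, where chance gives about 1 in 20. The number of tested genes with no count was 1434 in seed coat library 3 and 340 to 455 in the others. Cotyledon-high genes with no count numbered 667 in the same library and 241 to 315 in the others, and coat-high genes with no count numbered 21 against 1 to 5. In cotyledon library 5, 110 cotyledon-high genes had no count, against 6 to 34 in the others. In the time course, cotyledon-high genes with no count numbered 151 in mid-seed library 2 (others 53 to 72) and 256 in dry-seed library 4 (others 202 to 219). Sc02g0007870 stood at 11435 CPM in seed coat library 5, below 14936 to 15871 in the others, and at 6545 CPM in mid-seed library 5, above 1665 to 3290 in the others. The causes were not tested.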

How the results depend on the processing

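The numbers of genes higher and lower in seed coat moved by less than 1.5 times under each alternative run. Without each library in turn they ranged from 4451 to 5703 and from 5221 to 5915, and those at least 4-fold from 717 to 1001 and from 1508 to 1770. With only both tissues in the fit 4282 and 4527 genes were called, and with DESeq2's Wald test 5206 and 6050. Correlations of deviations were 0.0186 to 0.111 for same-numbered pairs of libraries and -0.133 to 0.121 for the other pairs. These values do not decide whether replicate numbers pair the libraries. With a replicate block 5235 and 5423 genes were called. Without cotyledon libraries 1 and 5, 1356 genes were at least 4-fold and 293 at least 16-fold higher in seed coat, and 2.15% of the coat-high genes so chosen were lower in whole seed than in axis. With lists at 2-fold, 18.0% of coat-high genes rose from mid to late seed and 19.1% from late to dry seed. At 5 CPM the difference in genes detected turned to 258.6 more in seed coat (exact permutation test, two-sided, adjusted p = 0.246), from a seed coat minus cotyledon value of -195.2 at 1 CPM. The causes were not tested. The 4 named genes kept their direction and call under every alternative run. Depth limits genes under 1 CPM, of which 34.9% were called.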

Other observations

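Most genes of a list had no other member next to them by identifier, and those that had one were counted without a test. Identifiers carry 1 of 26 numbered prefixes or an unnumbered one, and the labels do not say whether their order follows the genome. Among tested genes sorted by identifier, 11.7% of coat-high genes were followed within their prefix by another coat-high gene, where 4.49% of tested genes were coat-high. For cotyledon-high genes 17.9% were followed by another, where 8.65% of tested genes were in the list. Coat-high genes formed 78 runs of 2 or more that held 175 genes, and cotyledon-high genes 195 runs that held 480. The longest coat-high runs had 4 members, and 1 of them held Sc18g0006960. The longest cotyledon-high run had 12 members, at 2.72 to 55.6 CPM in cotyledon and 0.0989 to 2.98 CPM in seed coat. Near-identical neighbouring copies can share reads, and their part in these runs was not tested.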
